A study of Mus musculus with 12 samples.

Results

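The comparison concerned mice in which *Sox2* was deleted from the thalamus, and it used 6 of the 12 RNA-seq libraries of the series, the 3 mutant and the 3 control libraries of the *Sox2* line. Members were chosen by the names of the columns of the deposited count table, MUT_1, MUT_3 and MUT_4 for the mutants and CTRL_1, CTRL_2 and CTRL_3 for the controls. Each library came from a pool of 3 animals of one group, taken at birth (P0), whose dorsolateral geniculate nuclei (dLGN) were cut out of vibratome slices and frozen. Mutants were *Sox2* flox/flox and carried RORα-Cre, a Cre recombinase placed behind an IRES in the *Rora* gene, so that recombination followed *Rora* expression in postmitotic cells of sensory thalamus. Controls were littermates that were *Sox2* flox/flox or *Sox2* flox/+ and had no Cre, so all 6 pools carried at least 1 floxed allele and the Cre allele differed together with the deletion. The other 6 libraries, from the *Nr2f1* line of the series, include 3 pools of *Nr2f1* flox/flox mutants that carry the same RORα-Cre without a deletion of *Sox2*, and they were used only where stated.

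The dLGN relays the signals of the retina to the primary visual cortex. Its relay neurons are glutamatergic, and in the newborn they are being reached by retinal axons, are sending their own axons to the cortex and for a short period take up serotonin that they do not make. SOX2 is a transcription factor with an HMG box, best known for keeping neural stem cells undifferentiated, and dLGN neurons keep expressing it after their last division. The question put to the data was which classes of genes differed in the dLGN when *Sox2* was removed from these neurons, before their loss becomes visible.

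The deleted gene was examined first. *Sox2* (chromosome 3, 34650405 to 34652461, GRCm38) had 361, 363 and 382 CPM (counts relative to the TMM-adjusted library total) in the controls and 116, 150 and 152 CPM in the mutants. Every mutant pool lay below every control pool (log2 fold change -1.40, SE 0.10; two-sided exact permutation test, p = 0.1, below which a test of 3 pools against 3 cannot go). The pools of both groups were separate in this way, in either direction, for 37.9% of all genes tested. *Rora*, an orphan nuclear receptor of thalamic neurons and the gene that holds the Cre, had 364, 341 and 298 CPM in controls and 80.9, 100 and 76.2 CPM in mutants, or 25.6% of the control level (log2 fold change -1.96, SE 0.12, edgeR FDR 2.07e-05). The fall of *Rora* was present in all mutant pools. In the *Nr2f1* line, compared after the fall had been seen, *Rora* had 382, 344 and 413 CPM in controls and 363, 333 and 261 CPM in mutants, so that the groups overlapped, and it was not called (log2 fold change -0.25, SE 0.11, edgeR FDR 0.204). The difference between the effects of the 2 lines was -1.70 on the log2 scale (SE 0.18, edgeR FDR 0.000118, 1 fit over all 12 libraries). *Sox2* itself was lower in the *Nr2f1* mutants (-0.55, edgeR FDR 0.00635), and the number of Cre copies in either line was not analysed here. *Tcf7l2*, which marks thalamic neurons, lay between 632 and 848 CPM in controls and between 825 and 835 CPM in mutants. It is also counted among the oligodendrocyte lineage genes, and a single gene does not establish the tissue.

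Libraries held between 40306996 and 45205377 counts, of which the 10 most abundant genes took 6.5 to 8.98%. CTRL_3 stood apart from the other controls, with a chi-square per degree of freedom of 37.9 and 31.5 against them where CTRL_1 and CTRL_2 gave 10.4 against each other. CTRL_3 and MUT_3 also held the highest meningeal signal of their groups, a summed level of 2971 CPM in CTRL_3 against 1589 and 1668 CPM in the other controls, and of 4873 CPM in MUT_3 against 2458 and 2978 CPM in the other mutants. *Xist*, made from the inactive X of females, was at 0.189 CPM in CTRL_2 and 0.463 CPM in MUT_1 and between 293 and 579 CPM elsewhere, so pools differed in sex within both groups. In these bulk samples, fewer cells of a type and less RNA per cell cannot be told apart.

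Among the 15602 genes that passed the filter on low counts, 8.08% were called at an edgeR FDR below 0.01, 4.19% as lower and 3.9% as higher in mutants. The words rose and fell are used below for these calls, and a lack of overlap between groups is given as a description of genes already called. Called changes were moderate, with a median size of 0.71 and quartiles of 0.53 and 1.01 on the log2 scale, and 162 genes fell and 158 rose by more than 1. The median log2 fold change of all genes tested was 0.000. A core of 434 genes, 284 that fell and 150 that rose, kept their call in all 14 other fits, including those without any 1 library. For these genes the SE of the log2 fold change lay between 0.06 and 0.34 and the edgeR FDR was at most 0.00231. Genes described below as risen or fallen belong to this core unless the libraries on which the call rested are named. Of the called genes, 401 were members of at least 1 of 60 lists of functional classes, and 860 were in none. Counts per list are read against the percentages above, and for the smaller lists 1 or 2 members make a large share.

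**Figure D1:**
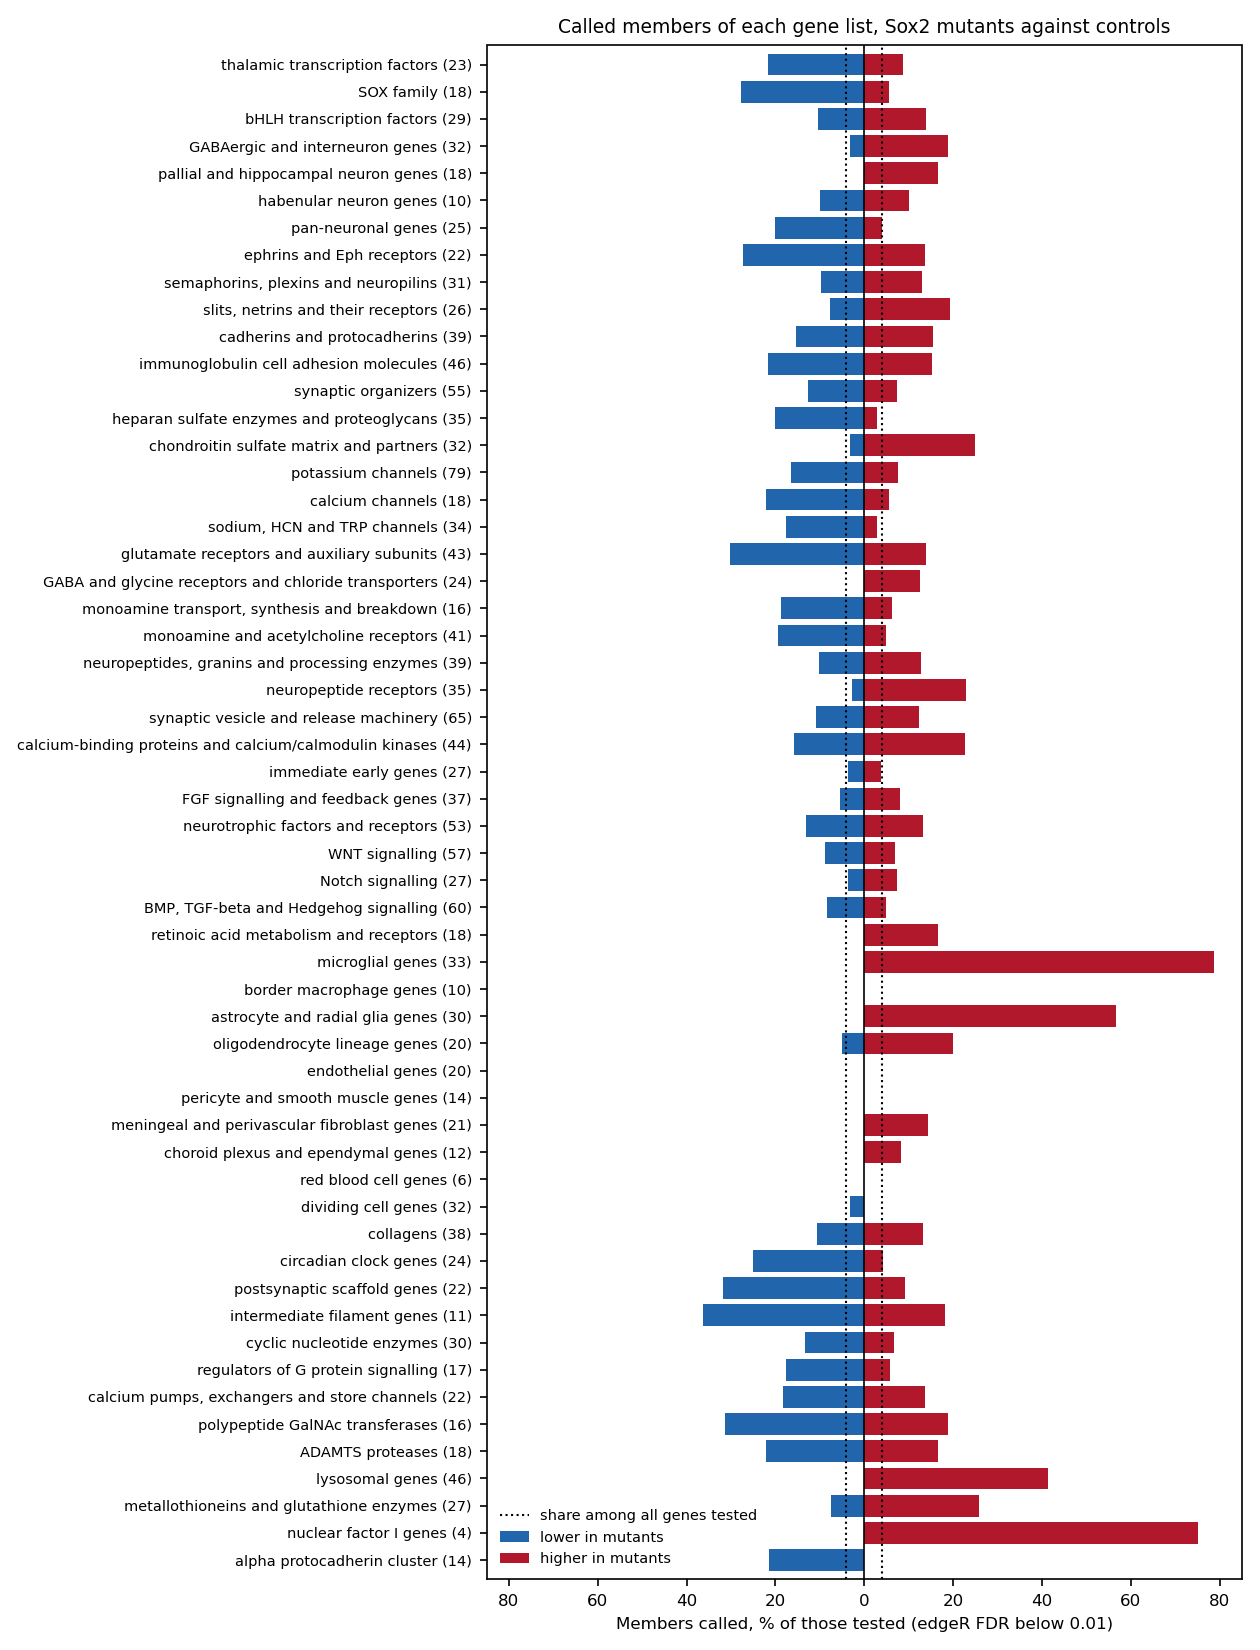
Percent of the tested members of each gene list that were called lower (blue, to the left) or higher (red, to the right) in *Sox2* mutants at an edgeR FDR below 0.01, with the number tested in brackets. The dotted lines mark the shares among all genes tested, 4.19% lower and 3.9% higher. Intermediate filament, postsynaptic scaffold and glutamate receptor genes are among those that reach far to the left. Microglial, astrocyte and lysosomal genes reach far to the right, and guidance and adhesion families to both sides.

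The called genes were also ranked by their difference in CPM between the group means. CPM are not comparable between genes, so this order is not one of relative change. Among the falls, *Vgf*, a secreted neuropeptide precursor, came first with a difference of -777 CPM. It was followed by the kinase gene *Sbk1* (-391 CPM), *Tenm2*, a teneurin of the synaptic cleft (-382 CPM), *Sptan1* and *Rgma* (-348 CPM each) and *Syt1*, the calcium sensor of transmitter release (-346 CPM). The call of *Sbk1* (log2 fold change -0.44) was lost without CTRL_2, MUT_1 or MUT_4 (-0.46 to -0.41), and that of *Rgma* (-0.69) without CTRL_1, CTRL_2, MUT_1 or MUT_4 (-0.70 to -0.58). *Tenm2* had 892, 797 and 574 CPM in controls and 359, 413 and 346 CPM in mutants, and its fall (log2 fold change -1.02) lost the call without MUT_4 (-0.97). *Syt1* had 790, 730 and 578 CPM in controls and 357, 364 and 340 CPM in mutants (log2 fold change -0.98). Both genes had no overlap between groups, with CTRL_3 the lowest control for each. Among the rises the order was *Ncan*, a brain chondroitin sulfate proteoglycan (685 CPM), *Apoe*, the lipid carrier of astrocytes (670 CPM), *Sparcl1*, a secreted protein of astrocytes (498 CPM), and *Tnc*, a matrix glycoprotein of immature glia (439 CPM). The call of *Sparcl1* (log2 fold change 0.61) was lost without CTRL_1, CTRL_2 or MUT_4 (0.56 to 0.59). *Apoe* had 630, 642 and 737 CPM in controls and 1277, 1375 and 1367 CPM in mutants (log2 fold change 1.00, SE 0.08, edgeR FDR 7.85e-05), so each mutant pool held far more than any control.

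The promoters of the 3 genes with the largest fall and of the 3 with the largest rise in CPM for which RefSeq gives one are shown, because these genes moved together in opposite directions and SOX factors and RORα bind short known motifs. *Vgf*, *Sbk1*, *Rgma* and *Sparcl1* belong to the same ranking and are named only. Each window holds 250 bases before and 50 after the first start that RefSeq lists for the gene (GRCm38.p6). Windows are read 5′ to 3′ on the strand of the gene. That of *Tenm2* lies at a start inside the gene (chromosome 11, 36006656 to 37235964). Capitals mark ACAAT or its reverse complement ATTGT, the core letters of SOX binding. The letters AGGTCA, the half-site of RORα, and its reverse complement were also searched and occur in none of the 6 windows.
The windows of the genes that fell are *Tenm2* (chr11:36944192-36944491, minus strand), *Sptan1* (chr2:29965310-29965609, plus strand) and *Syt1* (chr10:109010926-109011225, minus strand).
Tenm2: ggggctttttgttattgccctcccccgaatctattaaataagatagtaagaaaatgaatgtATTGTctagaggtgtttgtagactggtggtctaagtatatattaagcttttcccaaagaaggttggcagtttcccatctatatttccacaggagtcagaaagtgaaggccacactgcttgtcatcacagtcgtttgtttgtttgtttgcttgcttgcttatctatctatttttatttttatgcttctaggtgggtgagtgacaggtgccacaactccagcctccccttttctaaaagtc
Sptan1: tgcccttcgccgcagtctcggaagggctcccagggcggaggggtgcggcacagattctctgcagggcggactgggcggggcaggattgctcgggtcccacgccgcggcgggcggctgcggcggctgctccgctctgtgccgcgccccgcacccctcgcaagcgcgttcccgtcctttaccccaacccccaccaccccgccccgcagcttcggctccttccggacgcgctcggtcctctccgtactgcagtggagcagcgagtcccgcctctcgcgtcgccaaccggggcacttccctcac
Syt1: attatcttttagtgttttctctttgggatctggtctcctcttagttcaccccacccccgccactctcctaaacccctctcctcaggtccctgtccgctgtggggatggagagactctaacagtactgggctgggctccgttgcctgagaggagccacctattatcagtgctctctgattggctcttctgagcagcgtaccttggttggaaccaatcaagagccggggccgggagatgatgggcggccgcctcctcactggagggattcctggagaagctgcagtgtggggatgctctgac
The windows of the genes that rose are *Ncan* (chr8:70120795-70121094, minus strand), *Apoe* (chr7:19699139-19699438, minus strand) and *Tnc* (chr4:64046966-64047265, minus strand).
Ncan: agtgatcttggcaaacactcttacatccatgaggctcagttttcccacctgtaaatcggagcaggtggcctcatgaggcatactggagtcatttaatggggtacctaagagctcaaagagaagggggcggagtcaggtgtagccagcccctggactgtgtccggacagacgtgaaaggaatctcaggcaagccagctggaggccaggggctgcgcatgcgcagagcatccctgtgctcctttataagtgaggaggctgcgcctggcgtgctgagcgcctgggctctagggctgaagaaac
Apoe: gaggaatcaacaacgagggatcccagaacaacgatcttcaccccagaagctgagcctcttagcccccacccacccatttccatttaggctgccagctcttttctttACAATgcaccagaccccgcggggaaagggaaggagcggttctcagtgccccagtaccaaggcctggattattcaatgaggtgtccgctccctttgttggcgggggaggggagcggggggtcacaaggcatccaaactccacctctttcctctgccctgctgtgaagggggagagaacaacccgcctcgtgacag
Tnc: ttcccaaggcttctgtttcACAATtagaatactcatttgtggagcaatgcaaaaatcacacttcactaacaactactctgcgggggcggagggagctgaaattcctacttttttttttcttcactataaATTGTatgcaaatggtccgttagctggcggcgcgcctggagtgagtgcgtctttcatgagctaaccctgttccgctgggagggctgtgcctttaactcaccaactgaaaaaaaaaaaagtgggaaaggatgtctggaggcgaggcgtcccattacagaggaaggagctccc
The SOX letters lie at -189 in *Tenm2*, at -144 in *Apoe* and at -231 and -121 in *Tnc*, counted from the start site to the first base of the match, and are not in the windows of *Sptan1*, *Syt1* and *Ncan*. Among all 12310 tested genes with a promoter, 20.2% hold these letters and 12% hold AGGTCA. Since only 76.1% of the genes that fell, 75.8% of those that rose and 78.9% of all tested had a promoter in RefSeq, a comparison of the shares is void. *Sptan1*, the non-erythrocytic alpha spectrin, had a log2 fold change of -0.37 and lost its call without any of CTRL_1, CTRL_2, MUT_1, MUT_3 or MUT_4 (-0.37 to -0.34). *Ncan* (0.37) lost its call without the same 5 libraries (0.34 to 0.43), and *Tnc* (0.61) without CTRL_1, CTRL_2, MUT_3 or MUT_4 (0.52 to 0.64).

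Transcription factors that specify thalamic neurons moved in both directions. Of 23 tested, 5 fell and 2 rose, with a median log2 fold change of 0.06. Besides *Rora*, *Lef1*, a nuclear partner of beta-catenin, fell from 243, 225 and 218 CPM to 109, 135 and 121 CPM (log2 fold change -0.91), and the homeobox gene *Prox1* fell from 50.2, 59.1 and 43.3 CPM to 29.3, 26.4 and 29.3 CPM (-0.84). For both genes the groups did not overlap. *Gbx2*, a homeobox gene of early postmitotic thalamic neurons, had 23.6, 17.9 and 14.6 CPM in controls and 66.4, 51.5 and 61.1 CPM in mutants, 319% of the control level (log2 fold change 1.67, SE 0.16, edgeR FDR 2.06e-04). The lowest mutant pool held more than the highest control for *Gbx2*, and the same was true of *Nr2f2*, a COUP-TF relative of *Nr2f1*, with 56.6, 53.4 and 63.9 CPM against 92, 92.4 and 93.5 CPM (0.68). *Nr2f1* itself was not called (-0.39, edgeR FDR 0.0559). *Lhx9* (-0.43) and *Pou2f2* (-0.53) fell as well, but without CTRL_1, CTRL_2, MUT_1 or MUT_4 neither was called (-0.46 to -0.35 and -0.55 to -0.46), nor was *Lhx9* without MUT_3. The number of factors that fell was 3 without each of CTRL_1, CTRL_2 or MUT_4, 6 without CTRL_3, 4 without MUT_1 and 7 without MUT_3, and 3 rose without CTRL_3.

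Of 18 SOX genes tested, 5 fell and 1 rose, with a median of 0.42. Apart from *Sox2* itself, which the genotype fixes, and *Sox5*, the falls were *Sox13*, a SoxD gene, with 144, 148 and 148 CPM in controls and 50.9, 56.9 and 53.9 CPM in mutants (log2 fold change -1.45), and the SoxC genes *Sox4* (-0.86) and *Sox11* (-0.51), which drive neuronal differentiation. *Sox13* was among the most even genes of the data, with both groups tight and far apart. Without MUT_4, *Sox4* (-0.82) and *Sox11* (-0.52) were no longer called and 3 members fell. *Sox1*, the SoxB1 relative of *Sox2*, rose (0.52), but not without CTRL_1, CTRL_2, MUT_1 or MUT_3 (0.46 to 0.53). The number that rose was 0 without CTRL_1 or CTRL_2 and 7 without CTRL_3, and 12 of the 18 log2 fold changes were positive.

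Genes of the basic helix-loop-helix family showed 3 falls and 4 rises among 29. *Neurog2*, a proneural factor, had 12.5, 12.2 and 12.8 CPM in controls and 3.26, 2.88 and 3.67 CPM in mutants (log2 fold change -1.93), and *Nhlh2*, a factor of young neurons, fell from 58.4, 50.8 and 45.1 CPM to 22.4, 21.5 and 25.9 CPM (-1.14). *Bhlhe41*, a repressor with a part in circadian rhythm, rose from 6.44, 5.51 and 6.74 CPM to 11.4, 13.5 and 16 CPM (1.13). None of the 3 genes overlapped between groups. With CTRL_1 or CTRL_2 left out 1 member rose, with CTRL_3 left out 10, and with MUT_4 left out 2, while 2 fell without CTRL_1, CTRL_2, MUT_1 or MUT_4.

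Among 25 genes that mark neurons of any kind, 5 fell and 1 rose, and 19 had a negative log2 fold change, with a median of -0.15. The members that fell included the neurofilament subunits *Nefm*, with 543, 540 and 497 CPM against 213, 285 and 245 CPM (-1.09), and *Nefh* (-0.62), which stiffen axons. *Celf4*, an RNA-binding protein of neurons, rose from 239, 281 and 209 CPM to 451, 386 and 402 CPM (0.76). The summed level of the list was 18641 to 20748 CPM in controls and 17970 to 19398 CPM in mutants, so the groups overlapped. Left out in turn, CTRL_1, CTRL_2 and MUT_4 each brought the falls to 3, and CTRL_3 brought them to 10 and the rises to 2.

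**Figure D2:**
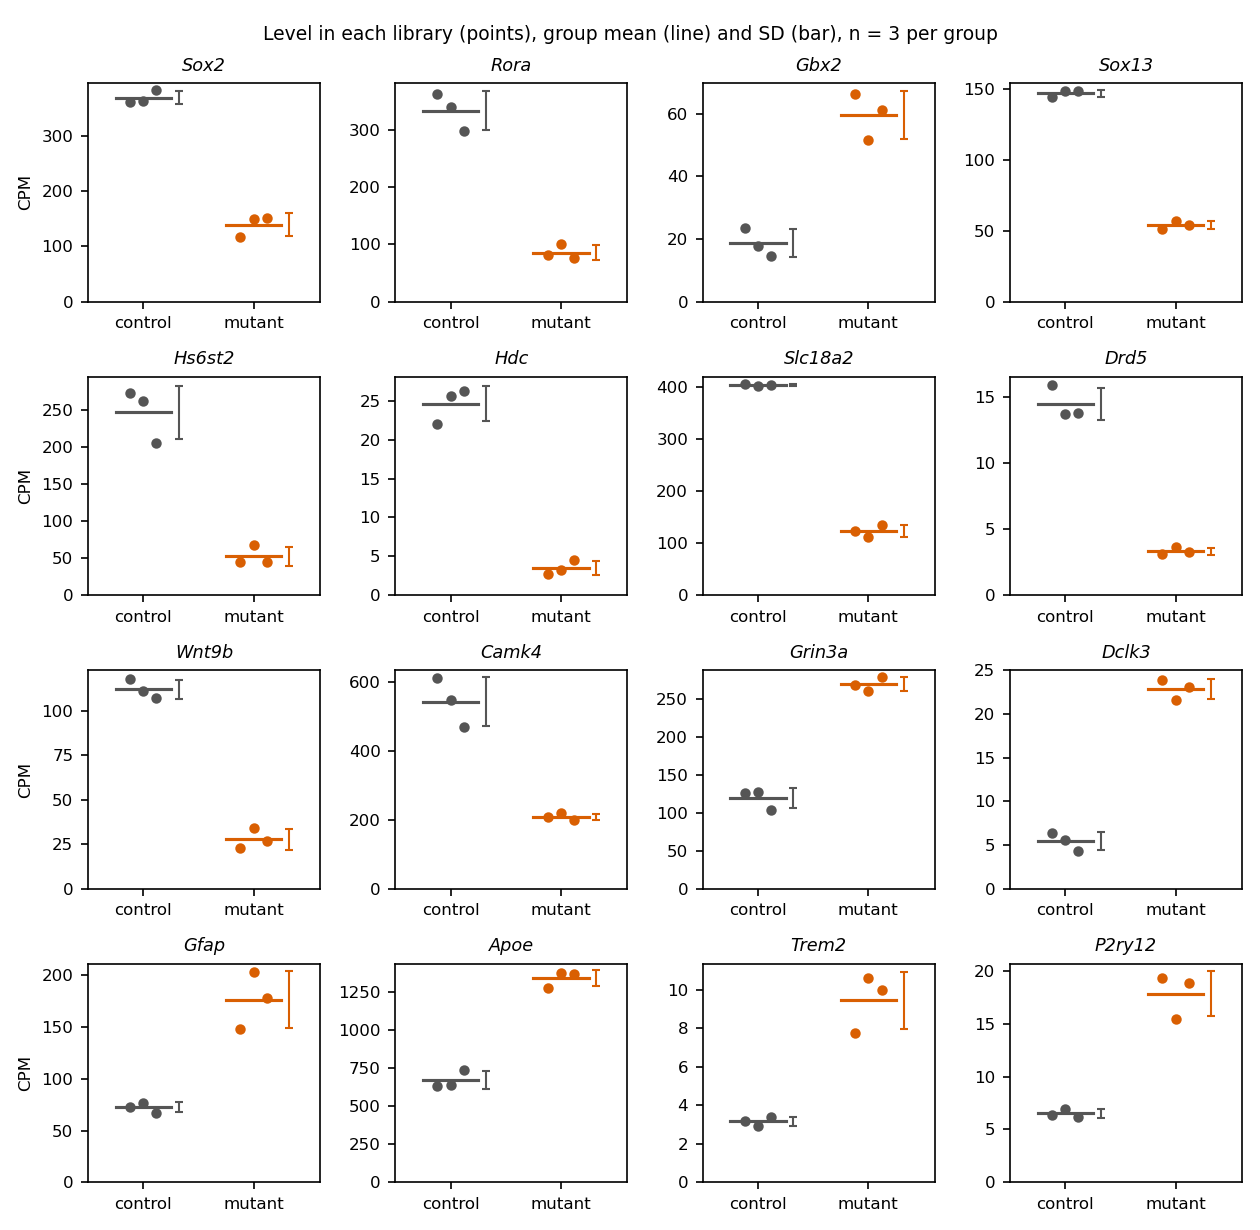
CPM of 16 genes in each library (points), with the group mean (line) and SD (bar), 3 pools per group, each axis starting at 0. In each panel the 3 mutant pools lie entirely above or entirely below the 3 control pools, below for *Sox2*, *Rora*, *Hdc* and *Wnt9b* and above for *Gbx2*, *Apoe* and *Trem2*.

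Axon guidance genes changed in a mixed pattern. Of 22 ephrins and Eph receptors 6 fell and 3 rose, of 31 semaphorins, plexins and neuropilins 3 fell and 4 rose, and of 26 genes of the slit and netrin families 2 fell and 5 rose. *Plxnc1*, a semaphorin receptor, had 39.8, 37.1 and 30.7 CPM in controls and 78.7, 62.5 and 77 CPM in mutants (log2 fold change 1.02). *Dcc*, the netrin receptor that attracts axons, rose from 24.2, 23.6 and 17.6 CPM to 40.9, 39.6 and 34.9 CPM (0.82). *Ntng1*, a membrane-bound netrin of thalamic axons, went the other way, from 382, 355 and 284 CPM to 174, 203 and 173 CPM (-0.89). Groups were separate for all 3 genes. The counts of these lists leaned on single libraries. In the order CTRL_1, CTRL_2, CTRL_3, MUT_1, MUT_3 and MUT_4, leaving out 1 library gave 1, 1, 8, 4, 4 and 1 falls and 1, 1, 5, 2, 3 and 1 rises of ephrin and Eph genes, 1, 1, 4, 1, 2 and 1 falls of semaphorin genes, and 1, 1, 5, 1, 3 and 1 falls and 4, 1, 7, 3, 3 and 1 rises of slit and netrin genes.

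Adhesion molecules moved in both directions. Of 39 cadherins and non-clustered protocadherins, 6 fell and 6 rose. *Cdh11* fell from 145, 144 and 131 CPM to 61.6, 82.2 and 65.9 CPM, or to 49.9% of the control level, and *Pcdh7* from 233, 218 and 173 CPM to 98.4, 106 and 93.9 CPM (log2 fold change -1.07). *Cdh4*, or R-cadherin, rose instead, from 63.4, 63.7 and 47 CPM to 134, 132 and 142 CPM (1.23), and *Pcdh17* (0.74) and *Pcdh18* (0.92) rose too. Cadherins bind mainly partners of their own type. Of 46 adhesion molecules of the immunoglobulin superfamily, 10 fell and 7 rose. *Cd47*, the ligand of the phagocyte receptor SIRPα, fell from 112, 134 and 96 CPM to 31.6, 46.7 and 34.9 CPM (-1.60), and *Ntm* by 0.74 on the log2 scale. *Kirrel3*, which joins cells of the same type, rose from 47.8, 48.3 and 35.6 CPM to 120, 107 and 119 CPM (1.39), and *Igsf11*, a postsynaptic adhesion protein, rose as well (0.86). None of the genes given here by library overlapped between groups. In the order of libraries used above, the fits without 1 library gave 3, 3, 8, 4, 6 and 3 falls and 4, 3, 9, 5, 7 and 4 rises of cadherin genes and 2, 2, 18, 5, 4 and 2 falls of immunoglobulin genes.

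Genes that organize synapses showed 7 falls and 4 rises among 55, with a median of -0.12. *Lgi2*, a secreted ligand of ADAM receptors, had 122, 118 and 90.7 CPM in controls and 29.7, 37.6 and 33.2 CPM in mutants (log2 fold change -1.72). *Lrrtm1*, a postsynaptic partner of neurexins that is needed at retinogeniculate synapses, fell from 93.4, 99.7 and 82.9 CPM to 49.1, 46 and 43.8 CPM (-0.99). The mutant pools were below all controls for both, whereas for *Flrt1*, a ligand of latrophilins and UNC5 receptors, they were above (12.1, 11.9 and 10.6 CPM against 23, 19.3 and 20.4 CPM, 0.86). Without CTRL_3, 15 organizers fell, and without CTRL_1, CTRL_2 or MUT_4 only 1 rose.

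The enzymes that write the sulfation pattern of heparan sulfate held some of the largest falls of the data. These sugar chains hang on cell surface proteoglycans and bind growth factors and guidance cues, and their sulfate groups decide what they bind. All 3 genes for 6-O-sulfotransferases fell. *Hs6st2* (chromosome X, 51387212 to 51681856, GRCm38) had 273, 263 and 206 CPM in controls and 45.5, 67.4 and 44.3 CPM in mutants, 21.2% of the control level (log2 fold change -2.24, SE 0.17, edgeR FDR 5.34e-05). *Hs6st3* fell from 46.6, 41.8 and 29.1 CPM to 9.35, 11 and 10.4 CPM (-1.93), and *Hs6st1* from 459, 454 and 392 CPM to 236, 230 and 236 CPM (-0.90). All mutant pools lay below all controls for each of the 3 genes, which lie on different chromosomes. Of the 3-O-sulfotransferases, which add the rarest modification, *Hs3st5* fell besides *Hs3st1*, from 30.7, 27.1 and 21.5 CPM to 10.8, 12.5 and 12 CPM (-1.17). The polymerizing enzymes *Ext1* (0.19) and *Ext2* (-0.15), the N-sulfotransferase *Ndst1* (-0.29) and the 2-O-sulfotransferase *Hs2st1* (0.09) were not called. In the whole list, 7 of 35 fell and 1 rose, with a median of -0.09, and the remaining falls were *Gpc4* (-0.69), which was not called without CTRL_1, CTRL_2, MUT_1 or MUT_4 (-0.67 to -0.61), and *Extl3* (-0.49), which was not called without CTRL_1, CTRL_2 or MUT_4 (-0.49 to -0.45). The single rise was the heparanase *Hpse* (1.75), at 0.26 to 0.296 CPM in controls and 0.657 to 1.08 CPM in mutants, and it lost its call without CTRL_1, CTRL_2, CTRL_3, MUT_3 or MUT_4 (1.62 to 1.81). The list had 3 rises without CTRL_3 or MUT_1.

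**Figure D3:**
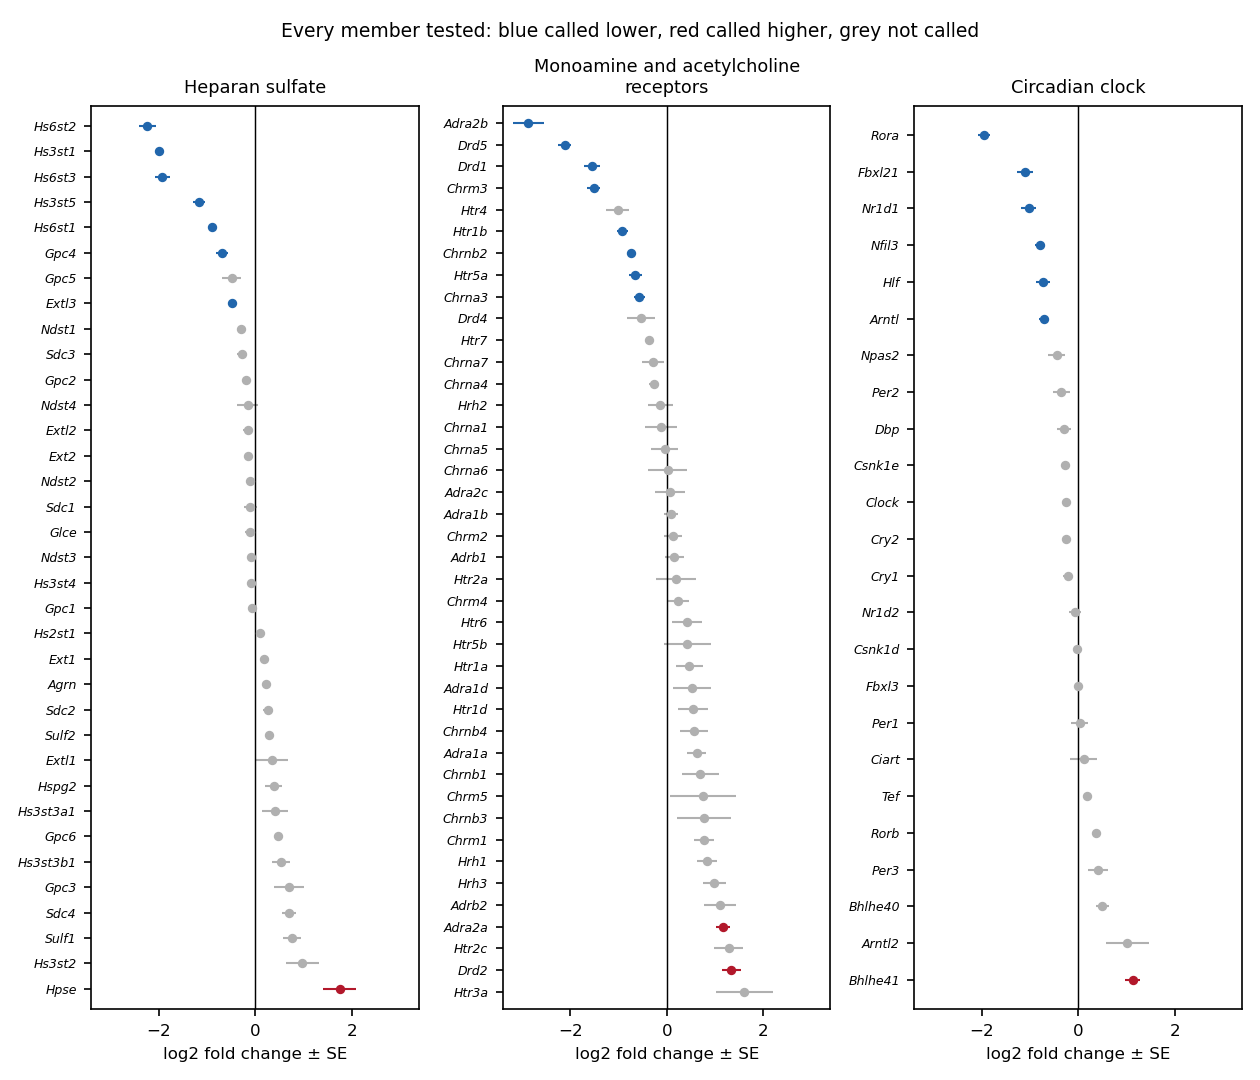
Log2 fold change of every tested member of the heparan sulfate, monoamine and acetylcholine receptor and circadian clock lists, mutants against controls, with the SE as a bar; blue members were called lower, red higher and grey not called. In the heparan sulfate panel *Hs6st2*, *Hs3st1* and *Hs6st3* lie near -2 and the polymerizing enzymes *Ext1* and *Ext2* near 0.

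Genes of the chondroitin sulfate matrix and its partners leaned to the other side. Of 32 tested, 8 rose and 1 fell, with a median of 0.34, and the 8 that rose included the core proteins *Bcan* and *Ncan*, which astrocytes and oligodendrocyte precursors also make. Of these 8, *Tnc* and *Ptprz1* are also counted among the astrocyte genes, *Vcan* among the oligodendrocyte lineage genes and *Reln* among the GABAergic genes. *Ptprz1* was not called without CTRL_1, CTRL_2, MUT_3 or MUT_4, nor *Reln* without CTRL_1, CTRL_2, MUT_1 or MUT_4. *Bcan* had 314, 334 and 371 CPM in controls and 478, 535 and 551 CPM in mutants (log2 fold change 0.62), and lost its call without MUT_4 (0.58). *Chst2*, a sugar 6-O-sulfotransferase, was the member that fell, from 563, 540 and 481 CPM to 243, 300 and 267 CPM (-0.97). The sulfotransferase genes *Chst3* (0.65) and *Chst8* (1.41) of the same list rose. Neither was called without CTRL_1, CTRL_2 or MUT_4, nor was *Chst8* without MUT_1. The mutant pools of *Chst2* lay near the level of one another and below all controls. In the library order above, 2, 2, 8, 5, 5 and 1 members rose when 1 library was left out.

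More ion channel genes fell than rose. Of 79 potassium channel genes 13 fell and 6 rose, but the median was 0.05, with 42 members positive and 37 negative, and at an unadjusted p below 0.05 there were 23 lower and 22 higher. Of 18 calcium channel genes 4 fell and 1 rose, with a median of -0.34, and of 34 sodium, HCN and TRP channel genes 6 fell and 1 rose, with a median of -0.19. *Kcnn1*, a small-conductance channel opened by calcium, had 97.6, 75.1 and 97.4 CPM in controls and 29.1, 30.6 and 36.3 CPM in mutants (log2 fold change -1.49). *Kcnf1*, a silent subunit that modifies other potassium channels, fell from 33.9, 36.3 and 26.3 CPM to 11.3, 13.5 and 14.9 CPM (-1.28). The subunits of G protein-gated inward rectifiers were among the rises, *Kcnj3* from 6.83, 6.44 and 5.7 CPM to 13.1, 13 and 12.9 CPM (1.03) and *Kcnj5* at 1.23, while *Kcnj6* of the same subfamily fell (-0.81) but not without MUT_1, MUT_3 or MUT_4 (-0.84 to -0.76). None of the genes given by library overlapped between groups.
Both neuronal L-type calcium channels fell, *Cacna1c* from 174, 161 and 143 CPM to 98.6, 88.2 and 87.5 CPM (-0.80) and *Cacna1d* by 0.55 on the log2 scale. *Cacna2d4*, an alpha2delta subunit, fell from 4.09, 4.43 and 4.15 CPM to 1.24, 1.67 and 1.35 CPM (-1.57). Leaving out 1 library in the order CTRL_1, CTRL_2, CTRL_3, MUT_1, MUT_3 and MUT_4 gave 7, 7, 18, 10, 8 and 7 falls of potassium channel genes, 3, 3, 9, 3, 3 and 3 of calcium channel genes and 2, 1, 10, 4, 5 and 3 of the sodium, HCN and TRP genes. The single calcium channel rise, that of *Cacnb3*, was not called without CTRL_1 or MUT_4 (0.56 in both fits). The single rise of the last list, that of *Trpm1* (2.30), was not called in any of these 6 fits (2.02 to 2.54), and another member of the list rose in the fit without MUT_3.

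Glutamate receptors and their auxiliary subunits showed 13 falls and 6 rises among 43, or 44.2% called, and a median of -0.14. *Grik3*, a kainate receptor subunit, had 569, 476 and 422 CPM in controls and 200, 201 and 182 CPM in mutants (log2 fold change -1.33). The AMPA receptor partner *Frrs1l*, which helps to assemble the receptor, fell from 165, 127 and 108 CPM to 46.1, 47.9 and 45.9 CPM (-1.52), *Gsg1l* from 220, 216 and 199 CPM to 66.8, 99.3 and 87.2 CPM (-1.33) and *Shisa9* from 324, 286 and 255 CPM to 131, 149 and 134 CPM (-1.07). The type II TARP *Cacng5* fell too (-1.17). In contrast, the NMDA receptor subunit *Grin3a*, which lowers calcium entry, rose from 126, 128 and 104 CPM to 268, 261 and 279 CPM (1.18). Groups were separate for every gene given by library. The falls numbered 9, 8, 16, 10, 9 and 8 and the rises 4, 3, 5, 3, 6 and 2 without each library in the same order.

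Of 24 receptors for GABA and glycine and chloride transporters 3 rose, among them the extrasynaptic GABA-A subunit *Gabra4*, from 10.8, 11 and 8.89 CPM to 17.8, 17.8 and 17.5 CPM (log2 fold change 0.79). No member fell by edgeR, where 3 had an unadjusted p below 0.05 with a negative sign and 2 fell with DESeq2. Without CTRL_3, 4 members fell, and without CTRL_2 or MUT_4 only 1 rose.

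Genes that make histamine, take up serotonin and load monoamines into vesicles fell. Of 16 genes of monoamine transport, synthesis and breakdown 3 fell and 1 rose, the same numbers as in each of the 6 fits without 1 library. *Hdc*, which makes histamine from histidine, lies on chromosome 2 (126593667 to 126619299, GRCm38). It had 22.1, 25.6 and 26.3 CPM in controls and 2.73, 3.2 and 4.51 CPM in mutants, 14.1% of the control level (log2 fold change -2.82, SE 0.17, edgeR FDR 2.49e-05). *Slc6a4*, the plasma membrane transporter that takes up serotonin, fell from 79.7, 69.8 and 80.1 CPM to 22.8, 32.1 and 31.5 CPM (-1.41, SE 0.13, edgeR FDR 1.30e-04), beside *Slc18a2*, which loads monoamines into vesicles. *Maoa*, which degrades monoamines, rose from 31, 32.9 and 34.7 CPM to 50.2, 54.1 and 51.3 CPM (0.66). The pools of mutants and controls did not overlap for any of these genes. *Ddc*, the decarboxylase that completes serotonin and dopamine synthesis, was at 3.03 to 3.32 CPM in controls and 3.43 to 5.02 CPM in mutants and was not called.

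Receptors for monoamines and acetylcholine showed 8 falls and 2 rises among 41, although the median of the list was 0.16. Both D1-type dopamine receptors, which raise cyclic AMP, fell. *Drd5* had 15.9, 13.7 and 13.8 CPM in controls and 3.09, 3.62 and 3.3 CPM in mutants (log2 fold change -2.12, SE 0.13, edgeR FDR 2.07e-05), and *Drd1* had 8.05, 9.54 and 6.42 CPM against 2.78, 2.93 and 2.48 CPM (-1.55). The D2 receptor *Drd2*, which lowers cyclic AMP, rose from 3.03, 2.84 and 2.49 CPM to 7.5, 5.17 and 8.5 CPM (1.34), but was not called without CTRL_2 or MUT_4 (1.18 to 1.35). The alpha2 adrenoceptors split as well. *Adra2b* fell from 3.64, 3.1 and 2.91 CPM to 0.292, 0.687 and 0.332 CPM (-2.87), and *Adra2a* rose from 3.64, 3.17 and 2.99 CPM to 7.62, 6.82 and 7.61 CPM (1.17). *Chrm3*, a Gq-coupled muscarinic receptor, fell from 27.7, 28 and 21.3 CPM to 8.35, 10.5 and 7.99 CPM (-1.52), and *Htr1b*, the serotonin receptor of thalamic axon terminals, from 33.5, 27.5 and 25.4 CPM to 15.3, 14.9 and 15.6 CPM (-0.92). For each receptor given by library, the lowest pool of one group lay above the highest of the other. Of the nicotinic subunits *Chrnb2* fell (-0.74). *Chrna3* fell too (-0.57), but not without CTRL_1, CTRL_2, MUT_1, MUT_3 or MUT_4 (-0.64 to -0.50). The histamine receptors *Hrh1* (0.83), *Hrh2* (-0.13) and *Hrh3* (0.99) were not called. Without CTRL_3, 11 receptors fell and 3 rose, and without CTRL_2 or MUT_4 1 rose.

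Peptide genes moved in both directions. Of 39 neuropeptides, granins and processing enzymes 4 fell and 5 rose, with a median of 0.41, and the 4 falls were present in each fit without 1 library. Besides *Vgf*, these were *Cck*, the precursor of cholecystokinin, with 158, 163 and 183 CPM against 63.4, 86.8 and 75.6 CPM (log2 fold change -1.16), *Scg5*, the chaperone of the convertase PC2, with 200, 194 and 191 CPM against 113, 120 and 91.2 CPM (-0.85), and *Trhde* (-1.47), which degrades thyrotropin-releasing hormone. *Pcsk2*, the gene of PC2 itself, rose from 49.1, 50.5 and 32.2 CPM to 110, 111 and 96.6 CPM (1.27). Thus the convertase and its chaperone moved in opposite directions, each with separate groups. *Agt*, the precursor of angiotensin that astrocytes make and that is counted among the astrocyte genes as well, rose from 17.5, 15.5 and 15.1 CPM to 50.1, 39.7 and 45.5 CPM (1.49). The other rises, at 0.642 to 5.8 CPM in all libraries, were *Nts* (1.92), *Adcyap1* (1.18) and *Nxph4* (1.17), which each lost the call without CTRL_1, CTRL_2, MUT_1 or MUT_4, and *Nxph4* also without CTRL_3 (1.66 to 2.22, 1.08 to 1.31 and 0.98 to 1.23). Of 35 neuropeptide receptors 8 rose and 1 fell, with a median of 0.58. *Oxtr*, the oxytocin receptor, rose from 7.6, 8.17 and 6.1 CPM to 14.1, 13 and 14.1 CPM (0.91). The fall was that of *Vipr2* (-1.44), which lost its call without CTRL_1 or CTRL_2 (-1.39 to -1.35), and 3 receptors fell without CTRL_3. In the order CTRL_1, CTRL_2, CTRL_3, MUT_1, MUT_3 and MUT_4, the fits gave 2, 2, 5, 2, 6 and 2 rises of peptide genes and 3, 4, 8, 4, 7 and 3 of receptors.

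Release machinery was divided between falls and rises, 7 and 8 of 65. *Slc17a6*, the vesicular glutamate transporter of thalamic relay neurons, fell from 271, 223 and 199 CPM to 122, 119 and 116 CPM (log2 fold change -0.96), and *Rims4* (-0.85) and *Syt13* (-0.63) fell with *Syt1*. *Baiap3*, a Munc13 relative of dense-core vesicles, rose from 9.5, 9.28 and 7.23 CPM to 28.4, 18.1 and 24.8 CPM (1.45), and the low-level genes *Syt17* (1.31) and *Rph3al* (1.35) rose too. *Slc17a6* and *Baiap3* had no overlap between groups. *Slc17a7*, the vesicular glutamate transporter of the cortex, also rose (1.24), from 9.23, 7.43 and 6.07 CPM to 25.1, 12.7 and 16.1 CPM, but its call was lost without CTRL_1, CTRL_2, CTRL_3 or MUT_4 (1.12 to 1.41). The number that fell was 14 without CTRL_3 and 4 without CTRL_2, and 5 rose without CTRL_2 or MUT_4.

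Calcium-binding proteins and calcium-dependent kinases showed 7 falls and 10 rises among 44. *Camk4*, a nuclear kinase that responds to activity, had 613, 548 and 472 CPM in controls and 209, 219 and 201 CPM in mutants (log2 fold change -1.38). The copines *Cpne4* (-1.42) and *Cpne8* (-1.06) and the calcium sensor *Hpca* (-0.61) fell with it. *Vsnl1*, another sensor of the visinin family, rose from 55, 50.2 and 42.9 CPM to 127, 127 and 115 CPM (1.32), and *Calb2*, or calretinin, from 92.7, 79.2 and 76.2 CPM to 219, 178 and 189 CPM (1.24). Mutant and control pools were separate for *Camk4*, *Vsnl1* and *Calb2*. Without CTRL_2, 5 members rose.

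Signalling pathways held a few large falls beside smaller changes in both directions. In the WNT list 5 of 57 fell and 4 rose. *Wnt9b*, a secreted WNT (chromosome 11, 103727364 to 103749821, GRCm38), had 118, 111 and 107 CPM in controls and 22.7, 34.3 and 26.8 CPM in mutants, 24.9% of the control level (log2 fold change -2.01, SE 0.13, edgeR FDR 2.95e-05). *Fzd8*, a WNT receptor, fell from 28.5, 31.1 and 25.2 CPM to 9.59, 9.66 and 12.7 CPM (-1.41), and *Lgr5*, a receptor for R-spondins, from 8.43, 9.94 and 7.09 CPM to 3.58, 3.55 and 3.96 CPM (-1.20). The other falls were *Lef1*, described above, and *Dkk4*, a secreted inhibitor of WNT signalling (-1.38), which lost its call without CTRL_1, CTRL_2 or MUT_4 (-1.46 to -1.35). The 4 rises were those of the ligands *Wnt7a* (0.61) and *Wnt7b* (0.55) and of the receptors *Fzd1* (0.59) and *Fzd7* (1.01), which were absent without CTRL_1, CTRL_2 or MUT_4. *Fzd1* was also not called without MUT_1 and *Fzd7* and *Wnt7b* without MUT_3, and 7 members rose without CTRL_3.

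Of 53 neurotrophic factors and receptors 7 fell and 7 rose. *Flt3*, a receptor tyrosine kinase, had 22.4, 17.4 and 22.5 CPM in controls and 4.12, 4.76 and 6.13 CPM in mutants (log2 fold change -2.05). *Ret*, the receptor that signals for GDNF (-0.84), and *Tgfa* (-0.78), a ligand of the EGF receptor, fell too, while *Erbb4* (0.65) and *Igf1* (0.91) rose. The rise of *Csf1r*, which carries the survival signal of microglia, belongs to the microglial list described below. In FGF signalling 2 of 37 fell, *Fgf13* (-0.83), which acts inside the cell on sodium channels and microtubules, and *Dusp5* (-1.34), a feedback phosphatase of ERK, and 3 rose, among them *Fgfr3* (0.63). *Fgfr3* is counted among the astrocyte genes as well. Of 27 Notch genes *Dlk1*, an atypical ligand, fell from 85.5, 100 and 101 CPM to 33.5, 43.7 and 48.4 CPM (-1.19), and 2 rose. Of 60 genes of the BMP, TGF-beta and Hedgehog pathways 5 fell and 3 rose. The mutant pools of *Flt3* and *Dlk1* were below every control. Of 18 retinoic acid genes 3 rose and none fell by edgeR or DESeq2, and 10 had an unadjusted p below 0.05, all of them positive. Of 27 immediate early genes, which report recent activity, 1 fell and 1 rose.

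The counts of these lists moved with single libraries. In the order CTRL_1, CTRL_2, CTRL_3, MUT_1, MUT_3 and MUT_4, neurotrophic genes gave 5, 4, 10, 5, 5 and 5 falls and 3, 4, 15, 7, 5 and 4 rises, FGF genes 2, 1, 9, 3, 3 and 1 rises, Notch genes 1, 1, 2, 1, 1 and 1 falls and 0, 0, 6, 3, 0 and 0 rises, immediate early genes 0, 1, 0, 0, 0 and 0 falls and 0, 0, 3, 0, 1 and 0 rises, BMP, TGF-beta and Hedgehog genes 2, 1, 7, 2, 4 and 1 falls and 1, 0, 8, 2, 2 and 0 rises, and retinoic acid genes 0, 0, 5, 2, 3 and 0 rises.

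Most microglial genes rose. Of 33 tested, 26 rose (78.8%), and all 33 had a positive log2 fold change, from 0.65 to 1.58, with a median of 1.11. The homeostatic genes *P2ry12*, a purine receptor (6.35, 6.98 and 6.22 CPM against 19.3, 15.4 and 18.8 CPM, 1.45), and *Cx3cr1*, the fractalkine receptor (25.2, 23 and 25.9 CPM against 52.6, 50.9 and 57.9 CPM, 1.12), were among them. So were *C1qb*, a chain of the complement factor C1q (11, 13 and 13.3 CPM against 26.4, 33.6 and 34.1 CPM, 1.34), and *Csf1r* (37.4, 37 and 42.7 CPM against 72.7, 89.8 and 85.9 CPM, 1.08). *Trem2*, the lipid receptor of phagocytic microglia, had 3.21, 2.91 and 3.38 CPM in controls and 7.77, 10.6 and 9.98 CPM in mutants (1.58, SE 0.16, edgeR FDR 2.11e-04). Every mutant pool was above every control pool for each of these 5 genes. The summed level of the list relative to the control mean was 0.956, 0.956 and 1.09 in controls and 1.89, 2.15 and 2.2 in mutants. No member fell by edgeR, by DESeq2 or at an unadjusted p below 0.05. Without each library in the order above, 18, 17, 30, 26, 21 and 16 members rose. The 10 genes of border macrophages were also all positive, with a median of 0.82, but none was called by edgeR or by DESeq2, 3 had an unadjusted p below 0.05, and *Mrc1*, a mannose receptor, had 20.6, 17.5 and 31.2 CPM against 26.8, 56 and 38.8 CPM, so that the groups overlapped. Border macrophage genes gave 1 call without CTRL_3 and 1 without MUT_1.

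**Figure D4:**
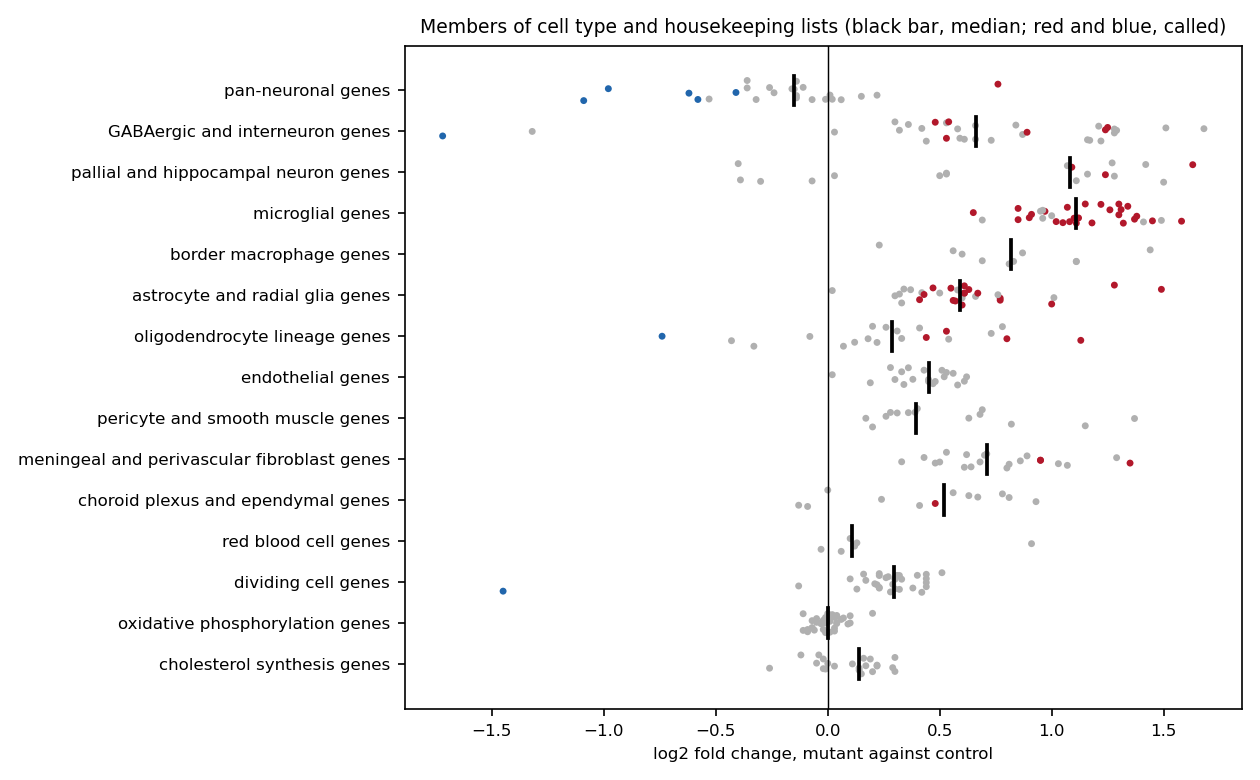
Log2 fold change of each tested member of 15 lists of cell type and housekeeping genes, with the median of the list as a black bar; red members were called higher, blue lower and grey not called. Microglial and astrocyte genes lie entirely to the right of 0, whereas oxidative phosphorylation genes lie within -0.11 to 0.20.

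Astrocyte and radial glia genes rose by a smaller amount. Of 30 tested 17 rose (56.7%), and all were positive, with a median of 0.59. *Gfap*, the intermediate filament of astrocytes, had 73.1, 77 and 67.1 CPM in controls and 148, 203 and 178 CPM in mutants (log2 fold change 1.28). The water channel *Aqp4* rose from 286, 266 and 313 CPM to 489, 505 and 483 CPM (0.77) and the gap junction protein *Gja1* from 82.3, 75.5 and 95 CPM to 126, 158 and 149 CPM (0.77). For *Gfap*, *Aqp4* and *Gja1* the groups were separate. The summed level of the list was 0.954, 0.943 and 1.1 of the control mean in controls and 1.4, 1.55 and 1.62 in mutants, and 8, 8, 24, 18, 10 and 8 members rose without each library in turn. *Sox2* is itself a gene of radial glia and astrocytes and was not counted in this list.

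**Figure D5:**
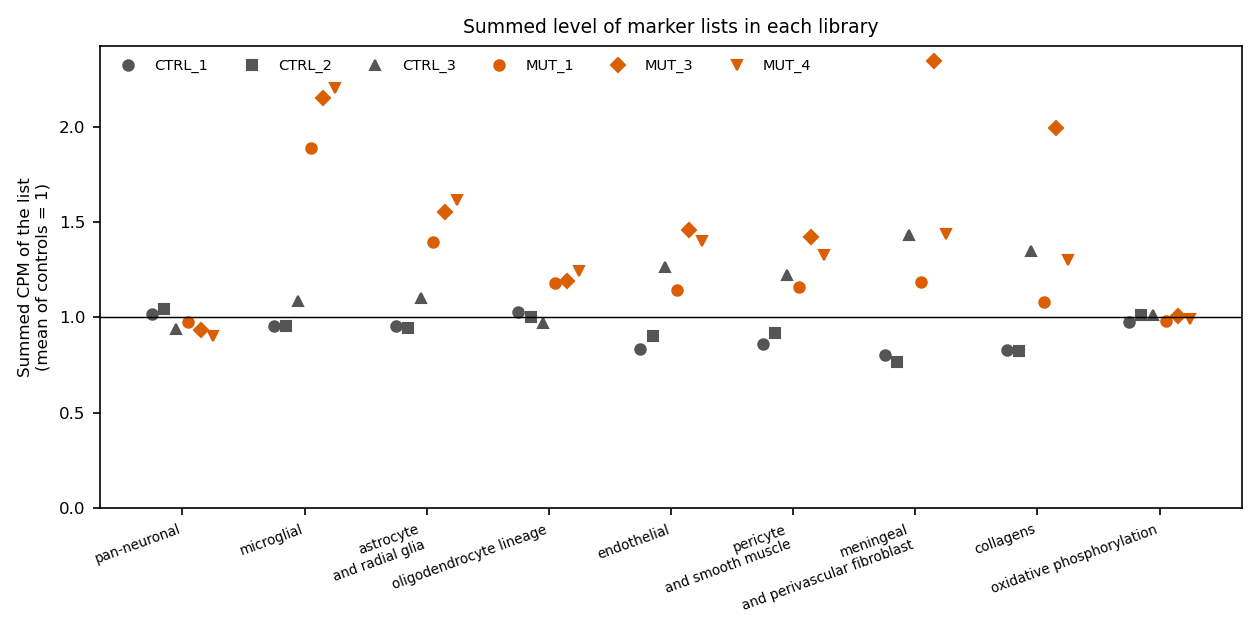
Summed CPM of 9 gene lists in each library, divided by the mean of the 3 controls, with one symbol per library. The mutants lie above all controls for the microglial and astrocyte lists, MUT_3 and CTRL_3 lie high for the meningeal list and the collagens, and all libraries lie near 1 for oxidative phosphorylation.

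Other cell types gave weaker or less even differences. Of 20 oligodendrocyte lineage genes 4 rose and 1 fell. *Mbp* of myelin rose (0.80) and *Mag*, also of myelin, fell (-0.74), both only with CTRL_1, CTRL_2, MUT_1 and MUT_4 in the fit (0.68 to 0.92 and -0.78 to -0.64 without them). In the usual order, 1, 2, 5, 1, 4 and 2 members of this list rose and 0, 0, 2, 0, 1 and 0 fell without 1 library. All 20 endothelial genes, all 14 pericyte and smooth muscle genes and all 21 meningeal and perivascular fibroblast genes were positive, with medians of 0.45, 0.39 and 0.71. Of these, 0 endothelial and 0 pericyte genes were called by edgeR, where 13 and 9 had an unadjusted p below 0.05 and DESeq2 called 2 and 1. Among the meningeal genes 3 rose. The calls depended on CTRL_3, in which these lists were high, and without it 10 endothelial, 8 pericyte and 7 meningeal genes rose, whereas without CTRL_1, CTRL_2 or MUT_4 no meningeal gene did and without MUT_3 1 did. Collagens, with 4 falls and 5 rises among 38, followed the meningeal list in CTRL_3 and MUT_3, though 2 minor collagens fell well below all controls, *Col9a1* from 16.1, 19.9 and 14.2 CPM to 5.67, 4.65 and 5.05 CPM (-1.71) and *Col4a4* (-1.69). The number of collagens that rose was 1 without CTRL_1, CTRL_2 or MUT_4, 8 without CTRL_3, 3 without MUT_1 and 2 without MUT_3. How far the meningeal signal bears on other rises was not tested.

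Dividing cell genes leaned slightly upwards, with 30 of 32 positive and a median of 0.29, but none rose by edgeR, where 16 had an unadjusted p below 0.05 and DESeq2 called 4, and 6 rose without CTRL_3 and 1 without MUT_3. The single fall was that of *Cdca7*, a nuclear protein and target of MYC, from 57.1, 58.7 and 56.1 CPM to 16.3, 25.8 and 21 CPM (-1.45). *Mki67*, the common mark of cycling cells, had 76.9, 62.3 and 77.6 CPM against 94.6, 90.6 and 106 CPM and was not called.

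Genes of GABAergic neurons, which the visual thalamus also holds as interneurons, and of pallial neurons were mostly higher. Of 32 GABAergic and interneuron genes 30 were positive and 6 rose, with a median of 0.66, and of 18 pallial and hippocampal genes 14 were positive and 3 rose, with a median of 1.08. The 6 GABAergic rises were *Calb2*, *Maf*, *Nkx2-1*, *Nkx2-2*, *Otx2* and *Reln*. *Nkx2-2*, *Otx2* and *Reln* are also counted in the oligodendrocyte, choroid plexus and chondroitin sulfate lists. *Maf* was not called without CTRL_1, CTRL_2 or MUT_4, nor *Nkx2-2* without CTRL_1, MUT_1 or MUT_3. *Otx2* and *Reln* were not called without CTRL_1, CTRL_2, MUT_1 or MUT_4, and *Nkx2-1* (0.592 to 1.83 CPM) in none of the 6 fits without 1 library. The clear exception was *Sp9*, a zinc finger factor of ventral forebrain interneurons that the dLGN also expressed highly, with 399, 337 and 345 CPM in controls and 94.2, 125 and 109 CPM in mutants (-1.72). *Gad2*, which makes GABA, had 22.5, 28.5 and 15.8 CPM in controls and 39.2, 31.6 and 31.3 CPM in mutants and was not called. The pallial genes were uneven within the groups. *Neurod6*, a gene of cortical and hippocampal neurons, had 10.3, 6.18 and 3.04 CPM in controls and 31.5, 7.03 and 16.6 CPM in mutants, so that CTRL_1 and MUT_1 were high, CTRL_3 and MUT_3 low, and the groups overlapped. A share of these differences that follows from where the slices were cut was not tested. Without each library in the order above, 1, 3, 5, 3, 5 and 2 GABAergic genes and 1, 0, 0, 2, 3 and 0 pallial genes rose. Habenular genes, with 1 fall and 1 rise among 10, and choroid plexus genes, with 1 rise among 12, rested on single libraries, since the habenular fall was called only without CTRL_3 among the 6 fits, the habenular rise only without MUT_1, and the choroid plexus rise only without CTRL_3 or MUT_3.

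Housekeeping lists gave the level at which the data were still. None of 39 oxidative phosphorylation genes was called by edgeR or DESeq2, none had an unadjusted p below 0.05, and their log2 fold changes lay between -0.11 and 0.20 with a median of 0.00. Of 22 cholesterol synthesis genes none was called by edgeR, 4 had an unadjusted p below 0.05, and DESeq2 called 2. Of 6 red blood cell genes none was called by edgeR or DESeq2 and 1 had an unadjusted p below 0.05, with the alpha globin *Hba-a1* at 166 to 271 CPM in controls and 185 to 281 CPM in mutants.

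Further families were written out whole after their leading members had been seen among the called genes, so that their counts only describe. Of 24 circadian clock genes 6 fell and 1 rose, with a median of -0.24. Besides *Rora*, the falls included *Nfil3*, a repressor that binds the sites of PAR factors, from 26, 24.9 and 26.8 CPM to 15.5, 13.1 and 16.5 CPM (log2 fold change -0.79), and *Arntl*, the partner of CLOCK, from 55.5, 66.5 and 53.6 CPM to 33.3, 37.8 and 36.3 CPM (-0.71). The groups were separate for both. *Hlf*, a PAR factor, fell from 51.5, 59.5 and 47.9 CPM to 27, 39.4 and 29.2 CPM (-0.73), but not without CTRL_1, CTRL_2, MUT_1 or MUT_4 (-0.75 to -0.62), and *Fbxl21*, which takes part in the turnover of cryptochromes, fell too (-1.10), but not without CTRL_1, CTRL_2 or MUT_4 (-1.09 to -0.99). *Nr1d1*, a target and antagonist of the ROR receptors, also fell (-1.03), but not without CTRL_2 or MUT_4 (-1.05 to -0.98), while *Per2* (-0.35) was not called. The hour at which the pups were taken was not analysed here. With 1 library left out, 4, 3, 7, 5, 6 and 3 clock genes fell.

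Of 22 scaffold genes of the postsynaptic density 7 fell and 2 rose, and the falls included *Shank2* (-0.73), *Homer2* (-0.79), *Iqsec3* (-0.82) and *Sipa1l2* (-0.90). *Iqsec3*, a scaffold of inhibitory synapses, had 166, 171 and 160 CPM in controls and 99, 92.9 and 89.6 CPM in mutants. *Pde7b*, which degrades cyclic AMP, fell from 61, 67.9 and 57.5 CPM to 22.2, 27.9 and 24.2 CPM (-1.33). *Slc24a2*, a sodium and calcium exchanger of neurons, fell from 59.8, 56.8 and 45.8 CPM to 25.4, 22.9 and 22.4 CPM (-1.20), and *Atp2c1*, the calcium pump of the Golgi, by 0.80 on the log2 scale. Among regulators of G protein signalling *Rgs8* (-0.78) and *Rgs16* (-0.99) fell and *Rgs4* rose (0.74). Each gene given here by library had separate groups. In the usual order, 5, 4, 8, 5, 5 and 4 scaffold genes fell and 0, 0, 2, 0, 1 and 0 rose.

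Of 16 polypeptide GalNAc transferases, which start O-linked sugar chains, 5 fell and 3 rose, with *Galnt14* the largest fall (42.4, 39.6 and 36.6 CPM against 12.9, 14.5 and 12.9 CPM, -1.56) and *Galnt3* (-1.25) and *Galnt9* (-0.70) beside it. Of 18 ADAMTS proteases, several of which cut chondroitin sulfate proteoglycans, 4 fell, among them *Adamts15* from 105, 83 and 72 CPM to 38.7, 30.6 and 40.7 CPM (-1.24) and *Adamts4* from 36.6, 31.2 and 25.6 CPM to 11.5, 14 and 13.1 CPM (-1.27). For these 3 genes no mutant pool reached the lowest control. The 3 rises of each of the GalNAc transferase and ADAMTS families were 0, 1, 2, 1, 1 and 0 and 0, 0, 4, 0, 1 and 0 without 1 library, and the falls of the transferases 3, 3, 5, 4, 4 and 3. *Pcdhac1*, from the alpha protocadherin cluster, fell from 49.1, 37.6 and 29.4 CPM to 6.04, 10.6 and 7.99 CPM (-2.23), but transcripts of this cluster share their last exons, so the division of reads among them is uncertain. In this cluster 3 of 14 fell, and 2, 2, 6, 3, 3 and 2 did without 1 library.

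Of 46 lysosomal genes tested 19 rose, 27 were not called and 40 were positive, with a median of 0.44. *Ctsd*, the main aspartic protease of lysosomes, had 204, 215 and 200 CPM in controls and 325, 375 and 382 CPM in mutants (log2 fold change 0.80). *Lgmn* (0.82) and *Ctss* (0.97) rose too. *Ctss* is also counted among the microglial genes, and the part of the microglial rise in the other members was not tested. Of 27 metallothioneins and glutathione enzymes 7 rose and 2 fell, with *Mt1*, a metal-binding protein of astrocytes, at 31.5, 32.9 and 36.1 CPM against 58.4, 77.1 and 71.1 CPM (1.04). Of the 4 nuclear factor I genes 3 rose, *Nfib* from 88.8, 72.5 and 87.3 CPM to 138, 135 and 127 CPM (0.69), *Nfix* (0.80), which was not called without CTRL_2 (0.75), and *Nfia* (0.53), which was not called without CTRL_1, CTRL_2 or MUT_4 (0.47 to 0.52). Mutant pools were above all controls for *Ctsd*, *Mt1* and *Nfib*. The lysosomal rises numbered 9, 7, 21, 18, 11 and 8 and those of metallothioneins and glutathione enzymes 3, 3, 9, 6, 5 and 2 with each library left out in turn, and the 2 falls of the latter list were 1, 1, 2, 1, 2 and 1.

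Outside all lists stood several of the largest changes. *Fam83f* fell from 13.9, 17.1 and 11.1 CPM to 2.07, 2.4 and 2.68 CPM (log2 fold change -2.56), *Ptpn22*, a phosphatase known from lymphocytes, from 5.38, 5.68 and 6.69 CPM to 0.779, 1.56 and 1.06 CPM (-2.38), and *Tuba8*, an alpha tubulin, from 6.9, 6.82 and 4.1 CPM to 1.07, 1.49 and 0.996 CPM (-2.32). *Vwc2l*, a secreted antagonist of BMP, rose from 2.76, 3.12 and 2.49 CPM to 9.52, 7.94 and 9.56 CPM (1.69), and *Dclk3*, a kinase, from 6.44, 5.63 and 4.34 CPM to 23.9, 21.6 and 23.1 CPM (2.06). In all 5 genes the pools of one group lay wholly beyond those of the other.

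The chromosomal regions that distinguish the genotypes were compared with the genome as a whole. Within 10 Mb of *Rora* on chromosome 9, where mutants carry the DNA that came with the Cre allele, 11 of 149 genes tested were called (7.38%), against 8.08% of all genes, and the share was 7.23% within 5 Mb and 10.2% within 20 Mb. Of the 11 genes 7 fell and 4 rose, the falls including *Anp32a* (-0.65), *Coro2b* (-0.53) and *Ick* (-0.50). Within 10 Mb of *Sox2* 7 of 71 were called (9.86%), 4 lower and 3 higher, among them *Sox2ot*, whose transcribed region (34104270 to 34682619) contains *Sox2*. Both genes lie on the plus strand. Reads of the overlapping *Sox2* and *Sox2ot* could therefore have been divided between them whether or not strand was used in counting.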

How the data were processed

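RNA was extracted from snap-frozen dLGN tissue with a column kit and sequenced as polyadenylated RNA. Per the labels and the paper's methods, STAR was used by the authors for alignment and RSEM for estimation; the submitters' notes name mm10. The authors deposited expected counts per gene, not normalized, of which 7.92% were not whole and were rounded here, so reads shared between related transcripts were already divided. Columns of the table were assigned to groups by name. Of 24480 genes, 15602 passed filterByExpr (minimum count 10, minimum total 15) and entered the quasi-likelihood test (glmQLFTest) in edgeR 4.0.16 (R 4.3.3) after TMM normalization, with calls at FDR below 0.01 and a median SE of 0.109. CPM were computed on effective library sizes and are not comparable between genes. Nothing says whether the libraries were prepared on 1 day, and p-values measure the spread between pools. Alternatives were other filters, normalizations and tests (DESeq2 1.42.0), FDR below 0.05, 1 fit over all 12 libraries, a replicate block, a male-gene covariate and leaving out each library.

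The comparison, 48 gene lists and the rule for named genes were chosen with earlier results of these data known, and 12 lists were added after the values were seen. The rule named up to 5 called members of each list in each direction by size, the called genes with the largest fold changes and CPM differences, and those near the alleles. *Arntl*, *Chrnb2*, *Cx3cr1*, *Extl3*, *Gpc4* and all genes given as not called except *Nr2f1* and *Xist* were named in addition, after their values were seen. Some genes that the rule names are not reported here. Gene positions are from GENCODE M21, in which 97.1% of symbols were found, and promoters from RefSeq. *Rora* and *Sox2* were compared between the *Sox2* and *Nr2f1* lines by an interaction contrast in the fit over all 12 libraries, added after the data were seen. The fits were tested on simulated data.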

Additional observations from a re-analysis of the deposited data

Results flagged for a closer look

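The effect on *Rora* differed between the lines of the series. In 1 edgeR fit over all 12 libraries the log2 fold change was -1.96 (SE 0.13) in *Sox2* mutants and -0.25 (SE 0.12) in *Nr2f1* mutants, and the difference between both effects was -1.70 (SE 0.18, edgeR FDR 0.000118). Both groups of mutants carry RORα-Cre in the *Rora* gene. This comparison was chosen after the fall of *Rora* had been seen, and *Rora* and *Sox2* were the genes for which the difference was examined.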

How the results depend on the processing

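Without any 1 library the number of called genes ran from 494 to 2161, of those that fell from 311 to 1077 and of those that rose from 180 to 1084, against 1261, 653 and 608. It was lowest without CTRL_2, 495 without MUT_4, 554 without CTRL_1 and highest without CTRL_3. DESeq2 called 2447 genes (1177 lower, 1270 higher), the likelihood ratio test 2351 (1053 and 1298), 1 fit over all 12 libraries 2075 (1071 and 1004) and FDR below 0.05 3095 (1467 and 1628). Upper quartile normalization called 565 lower and 749 higher, with the median of all genes shifted to 0.044, so the balance of directions depended on the scaling. With the replicate block 1611 genes were called (691 lower, 920 higher); deviations of the same-numbered libraries correlated at 0.227 and 0.223, only 2 numbers are shared, and the pools share only a number. With the male-gene covariate 883 were called, and *Xist* turned from -0.91 to 4.89. No other named gene turned its sign between the main fit and another fit where either of them called it. Sign changes of genes called in neither fit were not counted. The cause of the other changes was not tested. No fit changed the fall of *Sox2*. The comparison of motif shares was set aside as void for lack of promoters, and nothing was concluded from it.

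Calls rest on 3 pools a group, in which single libraries decide many of the smaller changes, and counts of list members moved accordingly. Genes below about 1 CPM carry few reads and their fold changes are imprecise. Controls lack the Cre allele, pools differed in sex, and meningeal tissue differed between pools, so for genes of border tissue genotype and dissection cannot be told apart.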
